A study of Mus musculus with 9 samples.

Results

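The RNA landscape of the wild-type (Prm2+/+) mouse testis was described from the 3 wild-type libraries of a series of 9, in which Prm2 is the gene for protamine 2 and the other 6 libraries come from Prm2-deficient and Prm2-heterozygous males. The 3 libraries were chosen by their genotype label alone, and no genotypes were compared. All were made from testes of C57BL/6 males, freed of the tunica albuginea, the fibrous capsule of the organ. The labels give no age for these males, so the stage of the testis is described only by the cell types whose genes were found. They do not say whether each library holds 1 male, so the spread given here is that between libraries. The library labels place replicates 1, 2 and 3 in 1 group, and values are given in that order, followed by mean ± SD (n = 3).

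Spermatogenesis takes diploid spermatogonia through meiosis as spermatocytes to haploid spermatids, which build a tail, an acrosome and a condensed nucleus. During condensation the histones give way first to transition proteins and then to protamines, small basic proteins that pack the DNA far more tightly. Transcription ends before the sperm is finished, and spermatids store many mRNAs for later translation. Sertoli cells nurse the germ cells inside the tubules, Leydig cells between the tubules make testosterone, peritubular myoid cells surround the tubules, and macrophages and vessels lie between them.

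RNA was read with QuantSeq, which samples polyadenylated transcripts near their 3′ end. The unit is the normalized count, that is, a library's count for a gene divided by 1 size factor for that library. A 3′ method yields about the same number of reads for a long as for a short transcript, and counts were therefore not divided by length, except where a value per kilobase of exonic length is named. Across 12043 protein-coding genes with a mean of at least 10, the Spearman correlation between exonic length and mean normalized count was -0.07, a description across genes that share the same libraries. The recovered counts summed to 4170744, 3677447 and 3629929. By counting error alone, a gene with 0 counts is compatible with an expectation of up to 3 counts, which is 2.85, 3.21 and 3.31 normalized counts. Yet 4, 2 and 15 entries were at 0 in replicate 1, 2 or 3 while both other libraries had at least 100 normalized counts. A value of 0 is therefore not shown to be absence of the RNA. Of 38685 entries in the table, 17006 had a count in every library, 22457 in at least 1 and 16228 in none.

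Replicate 3 stood apart from the other libraries. Among 14043 entries with a mean of at least 10, the median absolute difference in log2(normalized count + 1) was 0.19 between replicates 1 and 2, 0.38 between 1 and 3, and 0.40 between 2 and 3. Replicate 3 had 19028 entries with a count, against 19954 and 20074 in the others. It also differed by length. Among 1442 entries with exons of 52 to 2074 bases in total and a mean of at least 100, its median log2 ratio to the mean of the other libraries was 0.18, and it was -0.03 among the 1442 longest entries, of 6416 to 123179 bases. Replicate 1 against replicate 2 gave 0.04 and -0.01 in the same length classes. The part of transcript length in the results below was not tested, and for the genes named as high or low in replicate 3 the value of each library is given.

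The most abundant mRNA was Prm1 (ENSMUSG00000022501), which encodes protamine 1, the DNA-packing protein of the sperm head. Prm1 had 111606, 102155 and 92615 normalized counts (102125 ± 9495). Tnp1 (ENSMUSG00000026182), which encodes transition protein 1, the chromatin protein that comes before the protamines, had 71441, 66174 and 72964 (70193 ± 3563). Prm2 (ENSMUSG00000038015), the gene deleted elsewhere in the series, had 29757, 29716 and 39665 (33046 ± 5732). Tnp2 (ENSMUSG00000043050), for transition protein 2, had 25301, 23037 and 30662 (26333 ± 3916). Prm3, a gene of the same cluster, had 4958, 5054 and 6846 (5620 ± 1064). Prm1 was above Tnp1, Tnp1 above Prm2 and Prm2 above Tnp2 in every library, although the ranges of Prm2 and Tnp2 overlapped. Tnp1 and Prm2 were the only neighbours among the 20 most abundant entries whose ranges did not overlap, out of 19 neighbouring pairs, so that the order of the other neighbours is not settled by these libraries.

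Together the 5 packaging genes took 6.13%, 5.74% and 6.05% of all normalized counts (5.97% ± 0.209). Prm1 alone made up 43.0% of that sum. The ratio of Prm1 to Prm2 was 3.75, 3.44 and 2.33, lowest in replicate 3, where Prm1 was low and Prm2 high. Prm3 followed Prm2 closely, at 0.167, 0.170 and 0.173 of its normalized count. The 4 genes Prm1, Prm2, Prm3 and Tnp2 lie side by side on the minus strand of chromosome 16 (GRCm38, 10787936 to 10805839), and these 17904 bases gave 4.21% ± 0.137 of all normalized counts. In the annotation Prm1 overlaps 2 other genes and Tnp1 1, while Prm2, Prm3 and Tnp2 overlap none. Tnp1 lies on chromosome 1 (73015074 to 73015909, minus strand). Divided by exonic length, the 5 genes took 16.9% of the total, since their transcripts are short.

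These 5 genes are transcribed in spermatids, where the factor CREM binds cAMP response elements, DNA stretches with the core letters TGACGTCA. To show what stands before the starts of these genes, the last 100 bases before the RefSeq start (GRCm38.p6) are printed below, 5′ to 3′ on the gene's strand, with matches to the looser letters TGANNTCA in capitals.
Prm1 (chr16:10796824-10796923, minus strand): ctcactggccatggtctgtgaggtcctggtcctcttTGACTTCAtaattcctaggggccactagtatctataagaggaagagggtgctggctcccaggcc
Tnp1 (chr1:73015900-73015999, minus strand): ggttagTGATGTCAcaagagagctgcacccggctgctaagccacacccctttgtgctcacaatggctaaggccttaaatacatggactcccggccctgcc
Prm2 (chr16:10792106-10792205, minus strand): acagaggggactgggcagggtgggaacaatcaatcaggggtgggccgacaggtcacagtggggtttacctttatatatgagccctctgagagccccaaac
Tnp2 (chr16:10788656-10788755, minus strand): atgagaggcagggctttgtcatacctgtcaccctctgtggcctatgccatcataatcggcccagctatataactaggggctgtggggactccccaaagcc
Prm3 (chr16:10790915-10791014, minus strand): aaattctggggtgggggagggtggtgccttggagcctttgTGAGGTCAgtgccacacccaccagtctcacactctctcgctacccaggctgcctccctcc

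The match began 64 bases before the start in Prm1, 94 in Tnp1 and 60 in Prm3, and none lay in these 100 bases of Prm2 and Tnp2. TGANNTCA reads the same on both strands and includes the full TGACGTCA. In the 250 bases before the start, 13.5% of 27025 genes with a RefSeq promoter held TGANNTCA and 1.77% held TGACGTCA. A match to the looser letters is thus not rare by itself. These shares are for a wider window than the 100 bases printed, and the printed matches are not compared with them. The matches are a description of letters, and no binding was measured here.

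**Figure D1:**
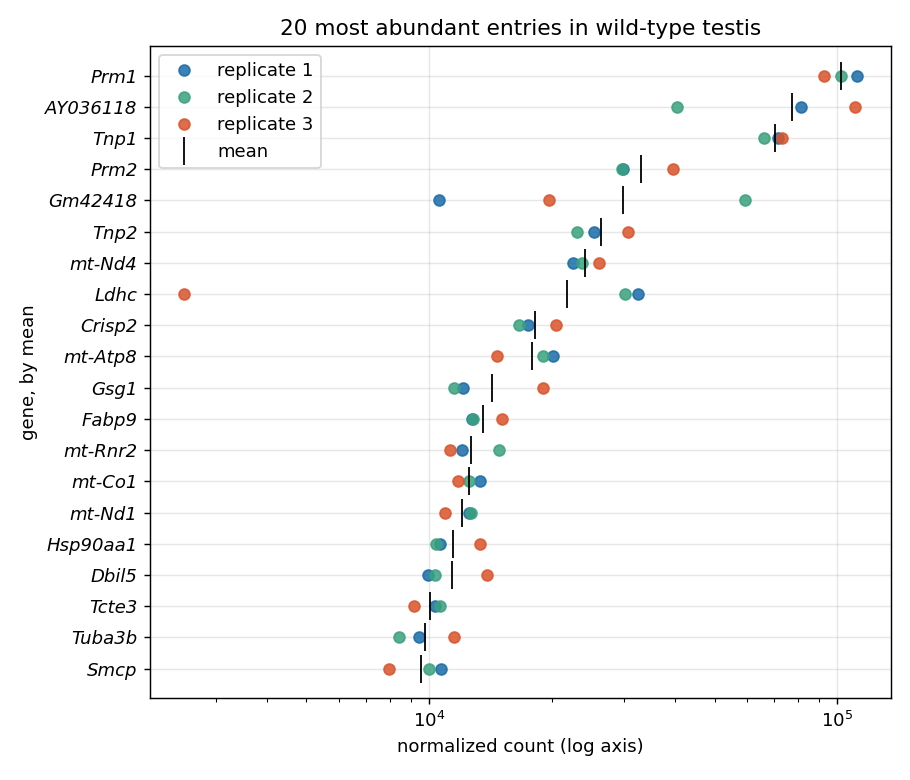
Normalized counts (log axis) of the 20 entries with the highest mean in wild-type testis, 1 row per entry, with 1 point per library and a black bar for the mean. Prm1 and Tnp1 lie at 92615 to 111606 and 66174 to 72964 in all 3 libraries, while AY036118, Gm42418 and Ldhc are spread widely.

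The 20 most abundant entries took 13.5% ± 0.248 of all normalized counts, and 15 of the 18 entries above 10000 were protein-coding. Besides the packaging genes, they held genes of the sperm tail, the acrosome, energy supply and lipid binding. Crisp2, for a cysteine-rich secretory protein of the acrosome and tail, had 17490, 16552 and 20395 normalized counts (18146 ± 2004). Gsg1, a germ-cell gene, had 12116, 11503 and 19043 (14221 in the mean), highest in replicate 3. Fabp9, the testis fatty acid binding protein, had 12712, 12784 and 15054, and Dbil5, an acyl-CoA binding protein of spermatids, had 9959, 10352 and 13852. All of these were highest in replicate 3. Hsp90aa1, a cytosolic chaperone, had 10624, 10415 and 13300, Tcte3, a dynein light chain, had 10352, 10656 and 9170, Tuba3b, an alpha-tubulin of the testis, had 9424, 8410 and 11468, and Smcp, for a selenium-associated protein of the sperm mitochondrial capsule, had 10685, 9979 and 7978. Leaving out any 1 library kept 19 of the same 20 entries, and dividing by exonic length kept 12, with Prm1, Tnp1 and mt-Atp8 at the top per kilobase.

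AY036118 and Gm42418, classed as lncRNA, held ranks 2 and 5, but their counts cannot be told apart from ribosomal RNA. Both lie on chromosome 17, AY036118 from 39847113 to 39848035 on the minus strand and Gm42418 from 39846958 to 39848788 on the plus strand, and both overlap an annotated rRNA gene (39846353 to 39848827). AY036118 had 81488, 40355 and 110422 normalized counts, and Gm42418 had 10591, 59466 and 19685. The library that was lowest for AY036118 was highest for Gm42418. Their sum was 92079, 99821 and 130107, with a coefficient of variation (CV, the SD as a percentage of the mean) of 18.7%, against 45.5% and 86.9% for each entry alone. Without these entries the 20 most abundant entries took 11.6% of the total.

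**Figure D2:**
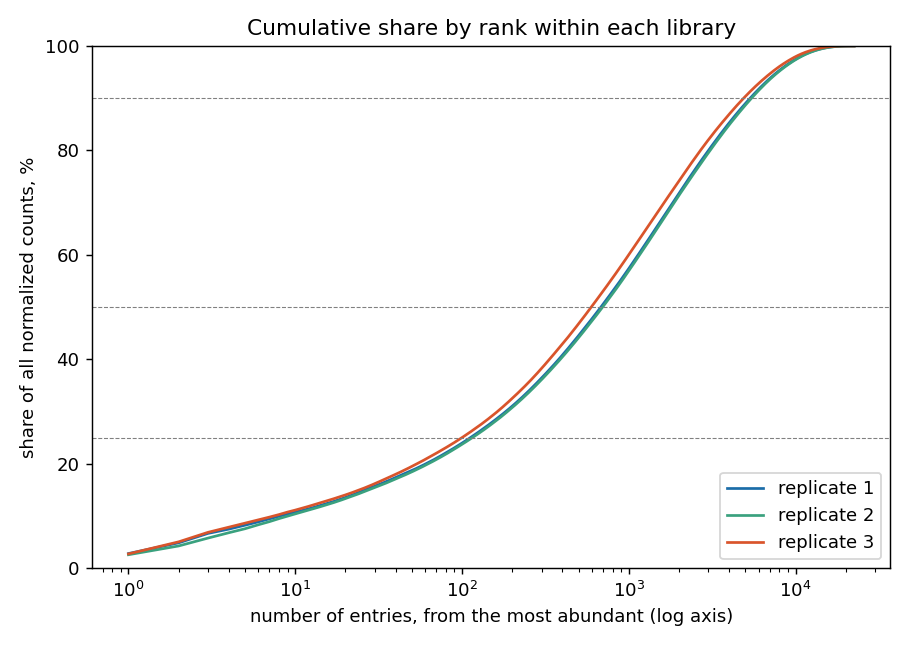
Cumulative share of all normalized counts (%) against the number of entries, ordered from the most abundant within each library (log axis), with 1 line per library and dashed lines at 25, 50 and 90%. Replicate 3 reaches 50% with 596 entries, replicates 1 and 2 with 681 and 697.

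The total was shared by many genes below this top group. On the mean of the 3 libraries, 112 entries made up 25%, 676 made up 50% and 5413 made up 90% of all normalized counts. Library by library, 681, 697 and 596 entries were needed for 50%, fewest in replicate 3. A mean of at least 1000 was reached by 736 entries, of which 703 were protein-coding and 27 lncRNA, and a mean of at least 100 by 5773. The median of the entries detected in every library was 48.1 normalized counts.

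**Figure D3:**
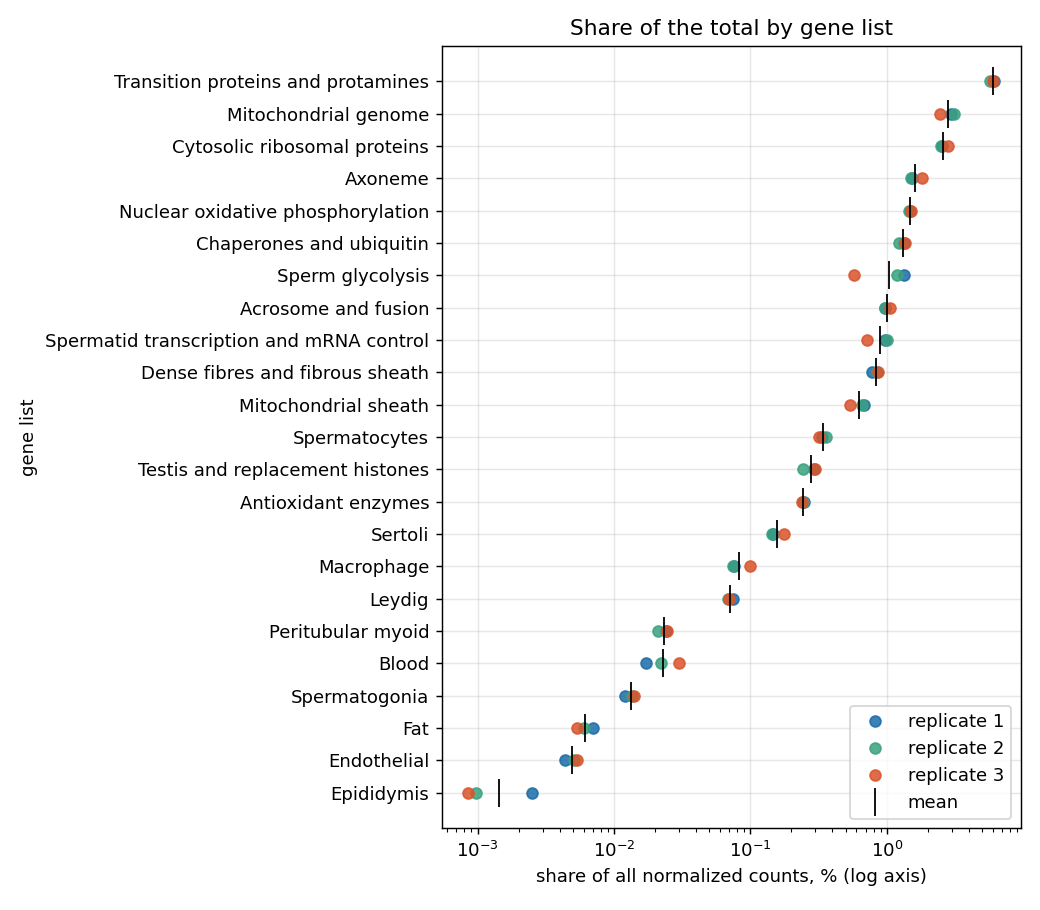
Share of all normalized counts (%, log axis) taken by each of 23 gene lists, with 1 point per library and a black bar for the mean. Packaging genes lead at 5.74 to 6.13%, and the lists for vessels and epididymis lie below 0.01%.

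The gene lists together held 540 entries and took 21.4% ± 0.472 of all normalized counts. In a bulk sample such as these, fewer cells of a type and less RNA per cell cannot be told apart, so a share is a share of RNA and not of cells. The counting error of each share is small, with a 95% Wilson interval of at most 0.0245 percentage points to either side. For most lists the spread between libraries is the larger error. Exceptions included antioxidant enzymes, with an SD of 0.00319 beside a replicate 1 interval of 0.243% to 0.252%. For endothelial genes the SD was 0.000493 beside 0.00377% to 0.00505%.

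Of the histones that belong to this transition, Hils1, a spermatid linker histone, had 4207, 3894 and 4720 normalized counts (4274 ± 417). H1fnt, a further linker histone of elongating spermatids, had 2374, 2138 and 2516 (2343 ± 191). H3f3b, which encodes the replacement histone H3.3, had 3138, 1648 and 3061 (2616 ± 839), low in replicate 2, and H3f3a, which encodes the same protein, had 458, 466 and 202. The entry 1700024P04Rik, listed among them, had 1109 ± 116. The 12 entries of this list took 0.292%, 0.244% and 0.299% of the total. Replication-coupled histone mRNAs mostly lack a poly(A) tail and are poorly sampled by a method that reads polyadenylated RNA. The testis forms Hist1h1t and Hist1h2ba had means of only 5.78 and 10.1, and the reason was not tested.

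Genes for the flagellum took 2.30%, 2.36% and 2.69% of the total (2.45% ± 0.205). Of 89 listed genes, 86 were detected in every library, 74 had a mean of at least 100, and Odf3l2 and Rsph4a were at 0 in all libraries. Among the dense fibres and fibrous sheath, the outer wrappings of the tail, Spa17 (sperm autoantigenic protein 17) had 7586, 8328 and 8435 normalized counts and Odf1, a main protein of the outer dense fibres, had 5669, 5616 and 7951. The fibrous sheath proteins Ropn1l (6493, 6320 and 6117) and Ropn1 (2302, 2281 and 2335) hardly varied, with CVs of 2.98% and 1.16%. Odf2, for a dense fibre scaffold, had 3367 ± 436, and Tcp11 had 2552 ± 361. In contrast, Akap4, the major protein of the fibrous sheath, had 208, 2133 and 194, and Odf3 had 1200, 1052 and 63.0.

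The axoneme, the microtubule core of the tail, was represented by 73 genes at 1.52%, 1.51% and 1.83% of the total. After Tuba3b, the most abundant were its near-identical copy Tuba3a (6542, 6312 and 5740 normalized counts), the radial spoke gene Rsph1 (5573, 5297 and 7173), Meig1 (2780, 2628 and 10072) and the beta-tubulin Tubb4b (3383, 3064 and 4756). Reads could be divided between Tuba3a and Tuba3b, and their levels are uncertain one by one. Meig1, which is needed to build the sperm tail, was high in replicate 3 alone. The heavy chains of the dynein motors were far lower, with Dnah8 at 1185, 1237 and 1524 and Dnah10 and Dnah5 at means of 29.0 and 9.82. Dnah17 had 4.75, 24.6 and 180, high in replicate 3, and its mean of 69.8 was 14.7 without that library. Dnah11, a heavy chain known from cilia, had 0, 2.14 and 0, from 0, 2 and 0 counts.

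Energy supply in the testis rests on mitochondria and, in the tail, on glycolysis. The mitochondrial genome took 2.97%, 3.09% and 2.44% of the total (2.84% ± 0.348), through 31 of its 37 genes. The others, among them mt-Co3 and mt-Atp6, had no entry of their own and were not analysed here. The most abundant were mt-Nd4 (22565, 23694 and 26115), a subunit of complex I, mt-Atp8 (20080, 18950 and 14621), of ATP synthase, and mt-Rnr2 (12007, 14799 and 11255), the large ribosomal RNA of the organelle. In the annotation mt-Atp8 and mt-Nd4 each overlap 1 other gene. Whether reads of a neighbour without an entry are in their counts was not tested. Their ranks and values per kilobase are therefore uncertain. The complex IV subunit mt-Co1 had 13347, 12510 and 11753 and the complex I subunit mt-Nd1 had 12515, 12664 and 10930. In replicate 3 mt-Co2 and mt-Cytb were low, at 3649 against 9177 and 8711, and at 5752 against 10104 and 10016. So was mt-Nd6, at 1064 against 4812 and 5136, while mt-Nd4 was high. The ratio of mt-Nd4 to mt-Co2 was thus 2.46, 2.72 and 7.16.

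Nuclear genes of oxidative phosphorylation took 1.47%, 1.46% and 1.50% of the total (1.48% ± 0.018), a CV of 1.21% that was the lowest of the lists, antioxidant enzymes being next at 1.31%. This constancy belongs to the sum, as the median CV of its members was 14.6%. Of 85 entries, 81 were detected in every library, and Cox4i2 was at 0. The most abundant was Cox8c, the testis form of a complex IV subunit (3687, 3570 and 3960), followed by Uqcrq of complex III (3214 ± 368), Cox5a of complex IV (2211 ± 67.7), Ndufb8 of complex I (1928 ± 300) and Cox7b2, a further complex IV subunit (1945, 1970 and 844). The share of the whole mitochondrial genome exceeded that of these nuclear genes 2.02-fold, 2.11-fold and 1.63-fold. The sets are unlike, as the mitochondrial one also holds ribosomal RNAs and tRNAs and lacks mt-Co3 and mt-Atp6. The nuclear list is one of genes for proteins. A ratio of mRNAs alone was not computed.

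The mitochondrial sheath of the midpiece is a helix of mitochondria around the tail. Its 11 listed genes took 0.625% ± 0.0758, of which Smcp made up 38.5%. Spata19 had 3374 ± 518 normalized counts and Spata18 had 2552 ± 668. Gpx4, the selenoprotein that also forms part of the sheath, had 1766, 1754 and 1623. In contrast Vdac2, a channel of the outer mitochondrial membrane, had 3069 and 2825 in replicates 1 and 2 and 9.94 in replicate 3, and Gk2, a glycerol kinase, had 2324, 2293 and 815.

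Sperm glycolysis genes took 1.33%, 1.19% and 0.578%, a fall in replicate 3 that came from Ldhc. This gene, which encodes the lactate dehydrogenase of germ cells, had 32531, 30092 and 2505 normalized counts, and so held rank 8 by its mean although replicate 3 was far below the others. Without Ldhc the list took 0.509%, 0.423% and 0.516%, so that replicate 3 was no longer low. Gapdhs (4253, 4727 and 5737), Pgk2 (3388, 3052 and 3864), Pgam2 (2663, 2808 and 4080) and Aldoart2 (2202, 2053 and 2761), enzymes of the same pathway, were all highest in replicate 3. Not every member was, as Pkm had 633, 639 and 44.2.

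Ribosomal proteins took 2.53%, 2.49% and 2.79% of the total (2.61% ± 0.165), spread evenly over 81 genes, of which 80 were detected in every library and 80 had a mean of at least 100. Rpl3l, the form of striated muscle, was at 0. The highest was Rpl37 (4438, 4173 and 5453), with 4.53% of the sum, followed by Rps20 (1554, 4797 and 6046), Rps29 (4152, 4028 and 4161), Rps14 (2483, 2228 and 4198) and Rpl32 (2946, 2934 and 2815). Rps20 was low in replicate 1 alone. Packaging genes exceeded ribosomal protein genes 2.42-fold, 2.30-fold and 2.17-fold, although the first list has 5 members and the second 81. Only 3 ribosomal protein genes were among the 100 most abundant entries.

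The acrosome, the enzyme-filled cap of the sperm head, and the proteins of sperm-egg fusion took 0.970%, 0.966% and 1.06%. Crisp2 gave 45.7% of this. Dkkl1, a secreted protein of the acrosome, had 5524 ± 867 normalized counts, the protease inhibitor Spink2 had 2882 ± 212, the sperm surface protein Adam3 had 2030 ± 166 and the acrosomal vesicle protein Acrv1 had 1477 ± 232. Dcst2 and Tmem95, known for fusion, were at 0 in all libraries, and Izumo1 and Spaca6 were not analysed here.

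Genes of spermatid transcription and mRNA control took 0.964%, 0.999% and 0.713%. The highest was Pabpc1, the cytoplasmic poly(A)-binding protein, at 9302, 9240 and 2324, low in replicate 3. The mRNA-storing protein gene Ybx3 had 4687, 4677 and 4392, and Mael and Piwil1 of the piRNA pathway, which silences transposons, had 4448 ± 315 and 2751 ± 84.5. Papolb, the poly(A) polymerase of the testis, had 2621 ± 107. These last 4 varied little, with CVs of 3.65%, 7.09%, 3.07% and 4.08%. Genes that the study names in connection with protamine translation had far lower normalized counts. Whether these counts give the level of their mRNAs was not tested. Ybx2, whose protein binds stored mRNAs, had 37.1, 49.3 and 24.3 normalized counts. Tarbp2, an RNA-binding protein needed for protamine translation, had 32.3, 4.29 and 16.6, from 34, 4 and 15 counts.

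Chaperones and ubiquitin genes took 1.34%, 1.23% and 1.36%. Among the members behind Hsp90aa1 were Dnajb3 (6866, 7274 and 8261), a cochaperone of spermatids, and Ubb (9026, 8054 and 53.0), which encodes ubiquitin. Ubb is one of the entries for which replicate 3 stood far below the others. Hspa4l, a heat shock protein of the testis, had 4384 ± 326. Hspa2, for the heat shock protein of meiosis, had 3730, 138 and 3256, low in replicate 2.

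Antioxidant enzymes took 0.247%, 0.243% and 0.241%. Sod1, the cytosolic superoxide dismutase, had 3131, 3039 and 3432 (3201 ± 205), and the sperm thioredoxin Txndc2 had 2330, 2185 and 2204. Prdx4, Sod2 and Prdx1 followed at 859 ± 81.3, 732 ± 198 and 726 ± 60.0. Prdx5, a peroxiredoxin that the study names with Sod1, had 431, 421 and 494 (449 ± 39.4). Catalase (Cat) had a mean of 45.6.

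Genes of earlier germ cells differed between the lists. Of 21 spermatocyte genes, 20 were detected in every library, 13 had a mean of at least 100 and 5 of at least 1000. They took 0.337%, 0.360% and 0.319%, led by Syce1 (2255, 2284 and 2377), Sycp2 (1838, 1891 and 1647) and Sycp1 (1629, 2006 and 1566) of the synaptonemal complex and by Smc1b (1835, 2002 and 1739) and Stag3 (1631 ± 161) of meiotic cohesin. Rad21l was at 0. Spermatogonial genes were lower. They took 0.0120%, 0.0137% and 0.0140%, and none reached a mean of 100. Id4, a gene of spermatogonial stem cells, had 96.0, 138 and 63.0, Dmrt1 had 85.5, 83.6 and 90.6, Stra8, which marks entry into meiosis, had 25.7, 35.4 and 138, and Gfra1 and Etv5 had means of 57.0 and 45.3. Nanos2, Ret and Upp1 were at 0.

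Markers of somatic cells took 0.325%, 0.314% and 0.375% of the total (0.338% ± 0.0324). The packaging genes exceeded them 18.9-fold, 18.3-fold and 16.1-fold. Aif1 and Clu carried much of this sum, and without Aif1, an alternative chosen after seeing the data, it was 0.267%.

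Sertoli cell genes took 0.146%, 0.144% and 0.176%. They were led by Clu (clusterin, 1734, 1846 and 2534), the cystatins Cst9 (973 ± 130) and Cst12 (708, 675 and 843), Aard (550 ± 125) and Cldn11 (272, 315 and 299), a protein of the blood-testis barrier. Sox9, a transcription factor of these cells, had 207 ± 32.5. Other listed markers were less even. Wt1 had 22.8, 145 and 18.8, Gata4 had 0, 25.7 and 0, and Vim had 401, 69.7 and 72.9. Amh and Fshr were at 0 in all libraries, and Amhr2, the receptor of the hormone, had 9.50, 6.43 and 692. Leydig cell genes took 0.0744%, 0.0687% and 0.0698%, with Cyp17a1 (1094, 972 and 1228), Scarb1 (523 ± 21.6), Cyp11a1 (266 ± 44.4), Star (249 ± 29.8) and Hsd3b6 (201 ± 45.8), which act from cholesterol uptake to steroid synthesis. Insl3 was not analysed here. Lhcgr, the receptor for luteinizing hormone, had 0, 0 and 4.42, from 0, 0 and 4 counts.

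Peritubular myoid genes took 0.0241%, 0.0209% and 0.0247%, led by the smooth muscle actins Actg2 (441 ± 46.0) and Acta2 (215 ± 11.1), with Myl9 (150 ± 39.4), Myh11 (58.9 ± 2.66) and Cnn1 (27.7 ± 5.77) behind. The macrophage list took 0.0755%, 0.0750% and 0.0990%, but 85.5% of it was Aif1 (2494, 2450 and 3534). Without Aif1 it took 0.0126%, 0.0128% and 0.0109%, with Csf1r (118 ± 18.4), Lyz2 (105 ± 11.5), H2-Ab1 (55.0 ± 9.88) and C1qb (36.6 ± 13.2). Cd68 (0, 10.7 and 0) and Adgre1 (0, 8.57 and 8.84) were low, and Cd14 was at 0. Aif1 was 24.0 times as high as Csf1r, the next of the list. Endothelial genes took 0.00491% ± 0.000493, with Egfl7 (107 ± 13.8), Kdr (39.1 ± 7.73), Cdh5 (11.5 ± 4.99), Eng (10.4 ± 0.392) and Vwf, which had 25.7 in replicate 2 and 0 in the others.

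Lists for blood and neighbouring tissues served as a check of the dissection. Blood genes took 0.0171%, 0.0220% and 0.0298%, from the globins Hbb-bs (258, 279 and 361), Hba-a1 (171, 239 and 370), Hba-a2 (169, 216 and 362) and Hbb-bt (77.9, 85.7 and 93.9), with Alas2 at 47.2 in replicate 2 alone. Epididymis genes took 0.00249%, 0.000979% and 0.000854%. Crisp1, Lcn5 and Lcn8, defining genes of the epididymis, were at 0 in all libraries, while Rnase10 had 32.4 ± 5.16 and Gpx5 had 62.7 in replicate 1, 2.14 in replicate 2 and 0 in replicate 3. Adam7 had 9.50 in replicate 1 alone. Fat genes took 0.00612% ± 0.000832, with Adipoq at 118 ± 5.51, Fabp4 at 112 ± 32.4, Plin1 at 10.1 ± 2.23, Car3 at 2.89 ± 2.70, and Cfd and Lep at 0.

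Many genes that every cell uses have a sister gene made in male germ cells, several of them copied from the X chromosome, which is silenced during meiosis. Of 20 pairs set side by side, the germ-cell form was the higher in all 3 libraries in 19. The median ratio of means was 15 on the count scale, the scale that suits a 3′ method. Per kilobase of exonic length, a scale that favours the shorter form, the median was 25.4. On that scale the germ-cell form was higher by the means in all 20, which adds no support. Reads of close copies could be divided between the forms and their pseudogenes, so each ratio is uncertain, and the pairs were chosen with the levels of several members known.

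Ldhc stood at 32531, 30092 and 2505 against 21.9, 17.1 and 6.63 for Ldha, the widest gap in spite of the low value in replicate 3. Gapdhs stood against 16.2, 13.9 and 15.5 for Gapdh, a gene often used as a reference for RNA amount. Tuba3b stood against 372, 354 and 409 for Tuba1a, and Cox8c against 197, 179 and 239 for Cox8a. The narrowest gaps in favour of the germ-cell form were those of Slc25a31 (396, 380 and 350) over Slc25a4 (269, 263 and 244), which carry ADP and ATP across the inner mitochondrial membrane, and of Cyct (485, 424 and 224) over Cycs (204, 197 and 208), the cytochromes c. Tbp, for the TATA-binding protein, had 9.50, 18.2 and 200, and its relative Tbpl1 had 1066, 1019 and 1157.

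Among the 8 pairs of an autosomal germ-cell form and an X-linked gene, the autosomal form was higher in all libraries in 7. Pgk2 stood against 49.4, 48.2 and 54.1 for Pgk1, the X-linked phosphoglycerate kinase. Cetn1, a centrin of the sperm neck, had 3446, 3048 and 3274 against 42.8, 45.0 and 68.5 for Cetn2. Rpl10l had 2310, 2358 and 2912 against 112, 133 and 127 for Rpl10, and Rpl39l had 2750, 2563 and 2337 against 231, 218 and 137 for Rpl39. Pdha2 had 462, 547 and 381 against 26.6, 26.8 and 34.3 for Pdha1, of pyruvate dehydrogenase, and Cox7b2 stood against 159, 136 and 120 for Cox7b. The exception was Cstf2t, for a polyadenylation factor, which had 191, 181 and 58.6 against 299, 228 and 333 for the X-linked Cstf2. Its mean was 0.501 times that of Cstf2 on the count scale, and 1.09 times per kilobase.

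**Figure D4:**
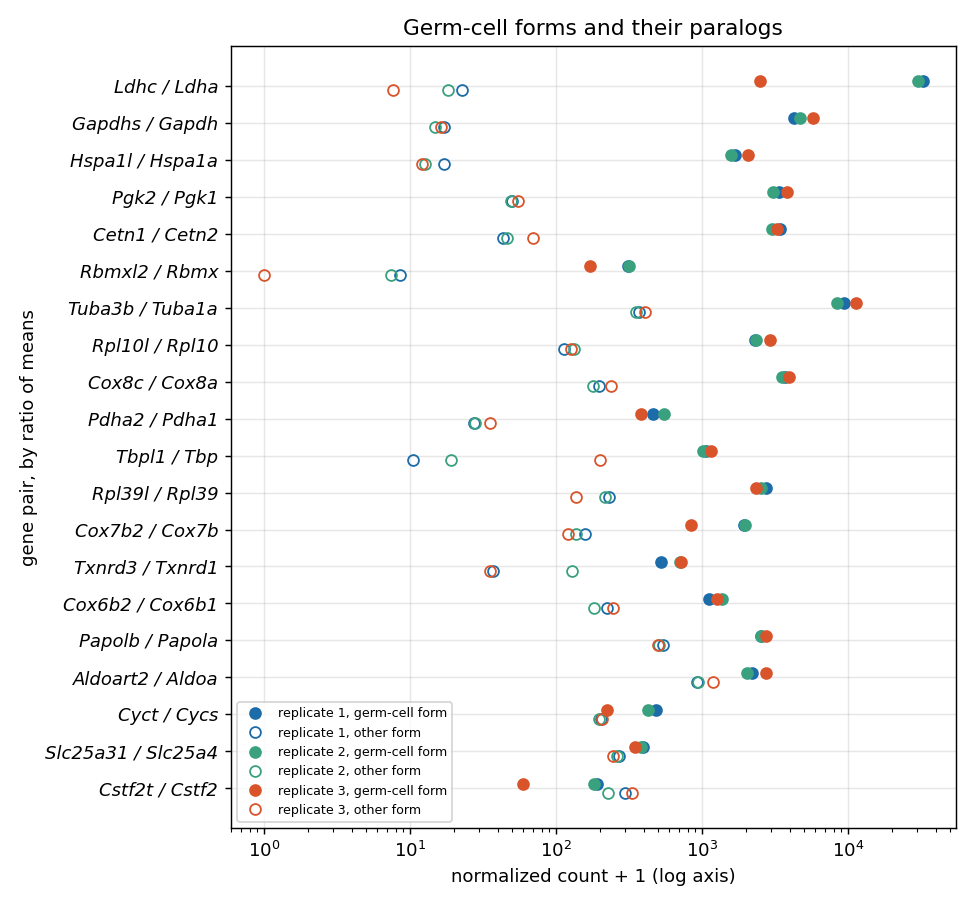
Normalized count plus 1 (log axis) of 20 germ-cell forms (filled points) and their paralogs (open points) in the 3 libraries, 1 row per pair ordered by the ratio of means. The filled points lie to the right of the open ones of the same library in every row but that of Cstf2t and Cstf2.

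By the type column of the table, protein-coding entries took 91.7%, 91.4% and 90.6% of the total (91.3% ± 0.552), and 13352 of 21019 (63.5%) were detected in every library. The lncRNA class took 7.38% ± 0.543, of which AY036118 and Gm42418, 2.70% of the total, were the most abundant members, and 2235 of 8439 entries (26.5%) were detected. Without those entries the class took 4.81%. Among the other lncRNAs, Gm11837 had 4924, 4934 and 3166, the X-linked 4930570D08Rik had 3996, 3933 and 3169, and 1700027A15Rik had 2958, 2819 and 3014. The last of these overlaps Tnp1 on the opposite strand, and Tnp1 exceeded it 24.2-fold, 23.5-fold and 24.2-fold, a nearly fixed ratio.

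Entries marked TEC, transcripts whose nature the annotation leaves for later experiments, took 0.442% ± 0.00815, with 1700097M23Rik (873 ± 86.4) and Gm17611 (733 ± 29.7) at the top. The mitochondrial tRNA class took 0.0727% ± 0.00509, with mt-Ts1 at 1864 ± 199 and mt-Te at 460 ± 66.8. Since polyadenylated RNA was read, these values are not levels of mature tRNAs. The entry mt-Ts1 (6870 to 6938, minus strand) also overlaps mt-Co1 (5328 to 6872, plus strand). The snoRNA class took 0.292% ± 0.0284, but 90.2% of its count came from 7 entries that lie inside protein-coding genes with no entry of their own. Gm26130 (5732, 5621 and 6882) lies in Tcp1, Snord14a (2290, 2142 and 2793) in Rps13 and Snord33 (1814, 1676 and 2376) in Rpl13a. For these entries the reads of the small RNA and of the host mRNA cannot be told apart, and the host names were chosen after the values were seen. The miRNA class took 0.0875% ± 0.00381, with Mir7234 (637 ± 57.2) and Gm26384 (502 ± 52.2) highest, and 24.5% of its count lay in hosts without an entry. As the method reads polyadenylated RNA, these values are not levels of mature miRNAs. Classes with fewer counts were snRNA (0.0133%) and misc_RNA (0.00521%).

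The spread between the libraries was described by the CV. Among 5773 entries with a mean of at least 100, the median CV was 15.4%, against 6.26% from counting error, and 742 entries (12.9%) lay below their own counting error. The median CV was 17% at means of 100 to 300, 14% at 300 to 1000, 13.1% at 1000 to 3000 and 14.1% at 3000 to 10000, where counting alone gives 1.56%. This spread rests on replicate 3. The median CV was 6.02% for replicates 1 and 2 alone, 15.8% for 1 and 3, and 16.2% for 2 and 3.

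**Figure D5:**
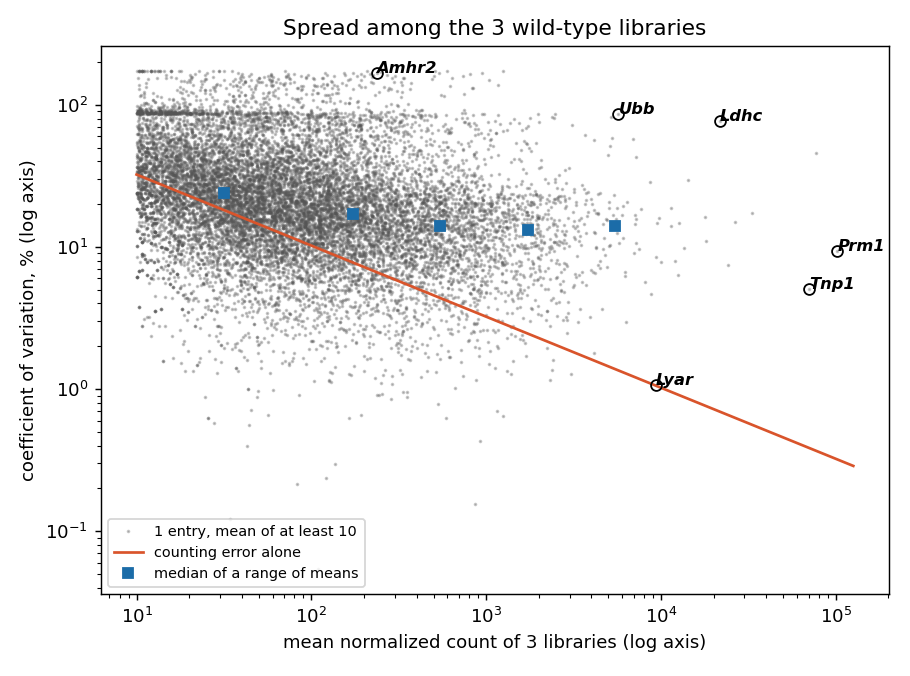
Coefficient of variation (%, log axis) of the 3 wild-type libraries against the mean normalized count (log axis), 1 grey point per entry with a mean of at least 10, blue squares for the median in 5 ranges of the mean and an orange line for counting error alone. The squares fall from 24.0% to about 14% and stay above the line, and the circled genes Ldhc, Ubb and Amhr2 lie far above it.

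The steadiest abundant genes, named after their values were seen, were Hspa4 (1250, 1233 and 1242), Bzw1 (1138, 1153 and 1151) and Lyar (9439, 9336 and 9241), with CVs of 0.650%, 0.700% and 1.06% among entries with a mean of at least 1000. Hspa4 encodes a chaperone of the Hsp110 family. The median counting error at means of 1000 to 3000 was 2.61%, above the CVs of Hspa4 and Bzw1.

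At the other end stood entries that were high in some libraries and near 0 in others. Of 6562 entries with at least 100 normalized counts in the highest library, 583 (8.88%) had 1 library more than 4-fold above or below both others, on log2 of the value plus 1. Replicate 1 was above in 69 and below in 77, replicate 2 above in 82 and below in 62, and replicate 3 above in 56 and below in 253 (3.86%), with 16 entries counted for 2 libraries. Of 412 members of the gene lists in this comparison, 33 (8.01%) had 1 library apart, and replicate 3 was below in 18 (4.37%), shares near those of all entries. The lists with none, among them the packaging genes, had at most 5 members in this comparison. Of the other lists, the lowest shares were 1 of 80 ribosomal proteins, Rpl15, and 3 of 77 nuclear oxidative phosphorylation genes. The highest were 3 of 13 Sertoli genes and 3 of 14 sperm glycolysis genes.

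The 10 entries with the widest spread each rested on 1 high library. Among 3 libraries the largest CVs can only arise in this way, so the choice by CV fixed this pattern. In the comparison above, 1 library was counted as low 392 times and as high 207 times. Amhr2, described above, and Necab1, which encodes a calcium-binding protein (1.90, 0 and 1525), Fam134a (5.70, 6.43 and 735) and Hist2h2aa1 (35.2, 34.3 and 2769) were high in replicate 3. Myl10 (8.55, 1780 and 3.31), Prrc2a (0, 627 and 0), Pdzk1ip1 (3.80, 450 and 5.52) and Dgcr6 (6.65, 506 and 5.52) were high in replicate 2. Ldhal6b, a lactate dehydrogenase of the testis (3768, 0 and 0), and Srsf9, a splicing factor (353, 4.29 and 4.42), were high in replicate 1. Fold changes between such values are not given, as the libraries are of 1 group.

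An overlapping entry that stood apart the other way was found for 10 of the 583 entries. Ldhal6b lies on chromosome 17 (5417323 to 5418767, minus strand) inside Gm29050 on the plus strand, which had 0, 1430 and 1498. Necab1, which is not among the 10, overlaps Gm11837, and while Gm11837 fell from 4924 and 4934 to 3166, the sum of both stayed at 4926, 4934 and 4691, with a CV of 2.85%. The method of counting builds transcripts before it assigns counts to genes, and whether reads were assigned to different genes in different libraries was not tested. Overlap with another annotated gene was found for 60.5% of the entries with 1 library apart and for 56.5% of all entries considered. Of those entries, replicate 3 below included Ldhc, Ubb and Vdac2, of which Ldhc and Ubb overlap no annotated gene.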

How the data were processed

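RNA of 3 wild-type testes libraries was analysed. Per the labels and the methods, the authors sequenced 50 bp QuantSeq 3′ reads, trimmed them with Trim Galore 0.4.5, mapped them to GRCm38 with HISAT2 2.1, counted with StringTie 1.3.3 and its count script, removed pseudogenes and scaled with DESeq2. As deposited, the signal of the table is the normalized count. All values (100%, tolerance 0.001) were whole multiples of 1 step per library, so counts were recovered. They derive from coverage and a read length, and may not equal numbers of reads, and intervals and limits cover counting error only. Of the entries, 38520 (99.6%) matched GENCODE M21, which supplied positions, exonic lengths and overlaps, and 218 had no type. The type column writes lncRNA.

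The members and lists were chosen with earlier results of these data known. Named genes are the 20 highest means, the 5 highest members of each list and markers at 0, the 2 highest entries of each type class with at least 10 detected, the 10 largest CVs at a mean of at least 100, and Prm2, Ybx2, Tarbp2, Sod1 and Prdx5. Others were named after their values were seen, and 1 gene that the rule names is not reported here. No test was run, since 3 libraries of 1 group form no comparison. The scripts were tested on simulated data. Python 3.11.15, numpy 2.4.6, pandas 2.3.3, scipy 1.17.1, matplotlib 3.10.9, R 4.3.3 and edgeR 4.0.16 (TMM factors and a dispersion estimate) were used. The dispersion estimate put the spread beyond counting error at 30.9%, as 1 value common to 12039 filtered genes.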

Additional observations from a re-analysis of the deposited data

How the results depend on the processing

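Each share was recomputed with other totals and gene sets, and called moved where it shifted by more than the SD of the 3 libraries. Leaving out any 1 library moved no share, and neither did pooling the libraries by count. Dividing by exonic length gave 16.9% for packaging genes, 2.15% for the flagellum, 8.33% for the mitochondrial genome, 1.87% for nuclear oxidative phosphorylation and 2.93% for ribosomal proteins. Against the total of protein-coding genes alone the shares were 6.55% for packaging genes, 2.69% for the flagellum, 1.62% for nuclear oxidative phosphorylation, 2.86% for ribosomal proteins and 0.370% for somatic markers, higher by construction, as the total is smaller. Without genes that overlap another, in list and total, packaging genes took 3.74%, the mitochondrial genome 1.98%, nuclear oxidative phosphorylation 1.90%, ribosomal proteins 2.98% and somatic markers 0.688%, the first falling because Prm1 and Tnp1 overlap other genes. Without the mitochondrial genome in the total, nuclear oxidative phosphorylation took 1.52% and the 20 most abundant entries 13.0%. Somatic markers took 0.282% without Vim and Clu (Ctsl, also set to be left out, had no entry) and 0.267% without Aif1. Chosen after seeing the data, as was the last, leaving out Tuba3a and Tuba3b gave 2.05% for the flagellum, and leaving out AY036118 and Gm42418 gave 11.6% for the 20 most abundant entries and 4.81% for lncRNA.

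The median CV was 6.02% without replicate 3 and at most 16.2% without another library, so it rests on that library. The number of entries with 1 library apart was 358 at 8-fold, 1092 at 2-fold, 357 with a highest library of at least 200, and 230 without overlapping genes. The counts of genes detected and of entries that make up 50% of the total stayed within 1.5 times the reported ones under each alternative run. Library totals of 3629929 to 4170744 limit what can be said of entries under about 3 counts. No paired analysis was possible because no comparison between groups was made.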

Other observations

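The sex chromosomes were described by the same counts. Of the X-linked protein-coding entries, 568 of 896 (63.4%) were detected in every library, against 12719 of 19945 (63.8%) on the autosomes. Their levels were lower, with a median of 30.2 normalized counts among those detected, against 68.5 on the autosomes. A mean of at least 1000 was reached by 4 X-linked protein-coding entries (0.446%), against 690 on the autosomes (3.46%). In all, X-linked entries took 1.41% ± 0.0851 of the total (n = 3).

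The 4 were small genes. Tmsb15a, a thymosin beta, had 2302, 2114 and 2586 normalized counts in replicates 1, 2 and 3, Tsga8 had 2230, 2107 and 1366, Cypt1 had 1708, 1637 and 1671, and Cypt3 had 1486, 1368 and 1422. Tsga8 and the Cypt genes are known from spermatids. Y-linked entries took 0.0280% ± 0.00674, and of 168 protein-coding ones 55 were detected in every library. Zfy2, a zinc finger gene, had 68.4, 87.9 and 66.3, and Ddx3y, an RNA helicase, had 66.5, 67.5 and 63.0. Several Y entries are near-identical copies, such as Gm29277 (140 ± 32.2) and Gm29089 (136 ± 30.5), and their levels are uncertain one by one.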
